A study of Mus musculus with 12 samples.

Results

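The nuclear-encoded subunits of the respiratory chain and of ATP synthase were read in mouse liver by 100 probes for 82 genes, out of 41174 distinct probes on the array. A probe was a member if its RefSeq accession mapped to a symbol beginning Ndufa, Ndufb, Ndufc, Ndufs or Ndufv plus a number, to Sdha, Sdhb, Sdhc or Sdhd, to Uqcr or Cyc1, to a Cox4i, Cox5, Cox6, Cox7 or Cox8 subunit, or to Atp5. Of these genes 81 passed the filter on dim probes, among 25270 genes or unnamed accessions that passed it. They were 35 genes named for complex I (NADH dehydrogenase), 4 of complex II (succinate dehydrogenase), 8 of complex III (cytochrome bc1), 17 of complex IV (cytochrome c oxidase) and 17 of complex V (ATP synthase). Cox8c, the testis isoform of Cox8, was well above background on 0 arrays and was the only member that did not pass. Ndufa11, Ndufa4l2, Ndufb1, Ndufb4b, Ndufb4c and Uqcr10 were not analysed here.

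The samples were whole livers of C57BL/6 mice fed for 2 days either control chow or chow holding 0.1% Wy-14643, an agonist of the fatty acid sensing nuclear receptor PPARA. The genotype MycF/F had 1 control array, whose RNA the labels call pooled, and 3 arrays of the drug diet. The genotype MycF/F,ERT2-Cre, below also called livers with Cre, had 4 arrays of each diet. All 4 groups carry floxed Myc; the labels call the genotype without Cre wt and the genotype with Cre ko. Sample RNA was read in Cy5 against a pooled liver reference in Cy3, so each level below is a log2 ratio to that reference and says nothing of how one gene's level compares with another's. ERT2-Cre is a recombinase that enters the nucleus only with an estrogen receptor ligand; what promoter drives it, how tamoxifen was given, and the sex and age of the mice were not in the labels. Whether replicates came from different animals is not stated either, and the spread that each p-value is set against may then be technical. In whole liver, a change in the share of a cell type and a change of RNA per cell cannot be told apart.

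Complexes I and II take electrons from NADH and succinate and pass them to ubiquinone, complex III passes them to cytochrome c and complex IV to oxygen. The proton gradient built on the way drives ATP synthase, which makes ATP in the mitochondrial matrix. In liver this chain takes up the electrons released by fatty acid oxidation, and its nuclear genes are transcribed apart from the few subunits encoded in mitochondrial DNA.

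The floxed gene, Myc, was read by 3 probes. Its first probe read 0.22 on the lone control array without Cre and 0.90, 0.53 and 0.88 on the drug arrays without Cre. With Cre it read -0.85, -0.22, -0.91 and -1.05 for control diet and -1.20, -1.15, -0.96 and -1.03 for Wy-14643. All 8 arrays labelled with Cre lay below the 4 without it, and replicate 2 of the control diet with Cre lay nearest to those without. On Wy-14643 this probe was lower with Cre by a log2 difference of -1.85 (SE 0.17, limma adjusted p = 0.00385 over all probes), and the second probe by -1.83; the third differed by -0.57 (limma adjusted p = 0.295). Where the probes lie relative to the floxed stretch is not known here. The arrays were printed on 3 slides of 4, and median Cy5 signal ran from 2.64 to 4.82 times background. Spots that the scanner software marked as outliers were left out, which removed 21.0% to 39.5% of the members on each of the 4 arrays of slide 1 and 1.23% to 6.17% on each of the other arrays. Members are bright: 70 of the 81 lay among the brightest 10% of genes.

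Wy-14643 raised a large share of the subunits in MycF/F,ERT2-Cre livers. Against the control diet, 35 of 80 testable members rose and 0 fell (limma, adjusted p under 0.05), or 43.8%. Over all genes on the array 8.94% rose and 7.44% fell. The log2 fold change was above 0 for 75 of 80 members, or 93.8%, beside 56.2% of all genes tested. Its median was 0.28 over the members against 0.03 over all genes tested. Among the brightest 10% of genes, 22.6% rose and the median was -0.00. The change was small for most subunits: the median over the called members was 0.45 and the smallest called change was 0.29. Within slides, the diets were compared on the same glass. Of the members with a value, called or not, 41 of 50 were higher on Wy-14643 on slide 1 (median 0.21). On slide 2, 70 of 75 were higher (median 0.38), and on slide 3, 75 of 79 (median 0.33). Shares over all genes within slides are not given here. The arrays' member medians were 0.02, -0.14, -0.14 and -0.11 on control diet and 0.13, 0.25, 0.17 and 0.20 on Wy-14643, without overlap. They do not cover the same members on each array. In the same order, 49, 52, 76 and 79 members had a value on control diet and 55, 78, 79 and 80 on Wy-14643. Of the 35 members measured on all 8 arrays, 21 had every Wy-14643 value above every control value, beside 9.47% of all genes measured on 8.

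Of the 35 calls, 30 rest on 3 or 4 arrays in each group, 4 on 2 control arrays and 1 on a single control array, which is assumed to vary like the rest. With each array left out in turn 25 to 38 members were called, and 21 of the 35 were called in all 11 such fits. With each array centred on its median in place of loess, 14 members were called, or 17.5% beside 13.8% of the brightest 10% of genes, and the median over all members was 0.68 beside 0.30 over those bright genes. With the Cy5 signal alone 6 members rose, or 7.5% beside 8.17% of the brightest 10% of genes, so the share called was no longer above that of bright genes; the median over all members was 0.37 beside 0.03. With outlier spots kept, 44 of 81 rose.

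**Figure D1:**
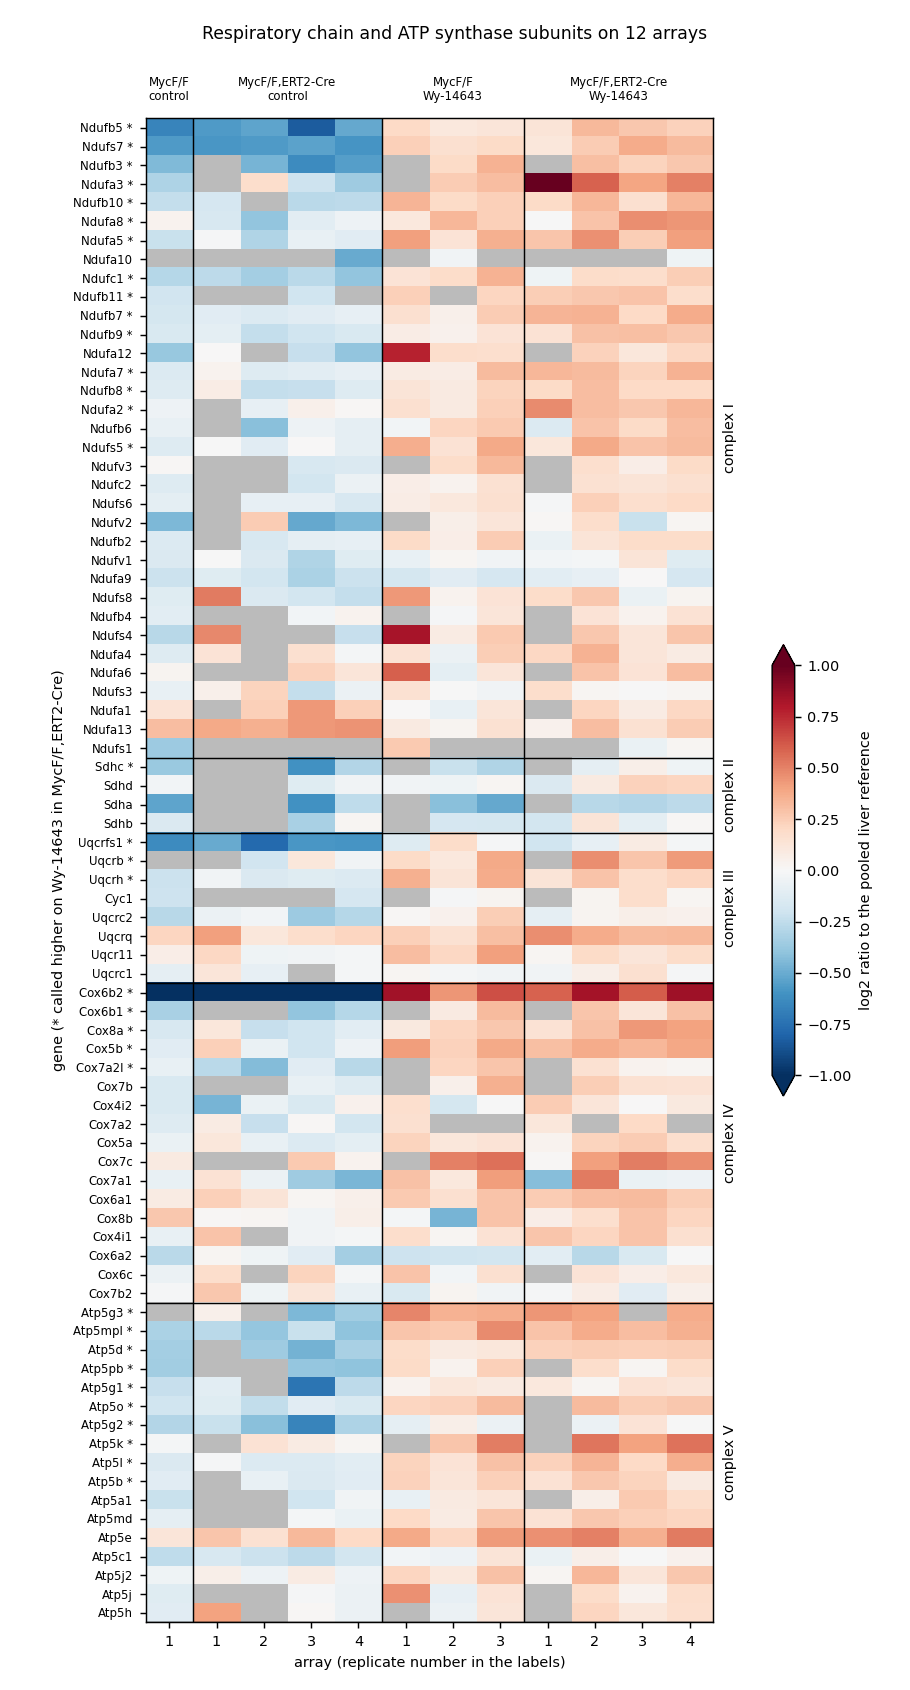
Log2 ratio to the pooled liver reference for 80 of the members (rows, by complex and by fold change) on the 12 arrays (columns, by group; numbers are replicates). Red is above and blue below the reference, colours end at 1 and -1, grey marks values left out, and stars mark the 34 of them called higher on Wy-14643 in MycF/F,ERT2-Cre; control arrays are bluer than Wy-14643 arrays over most of the starred rows.

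**Figure D2:**
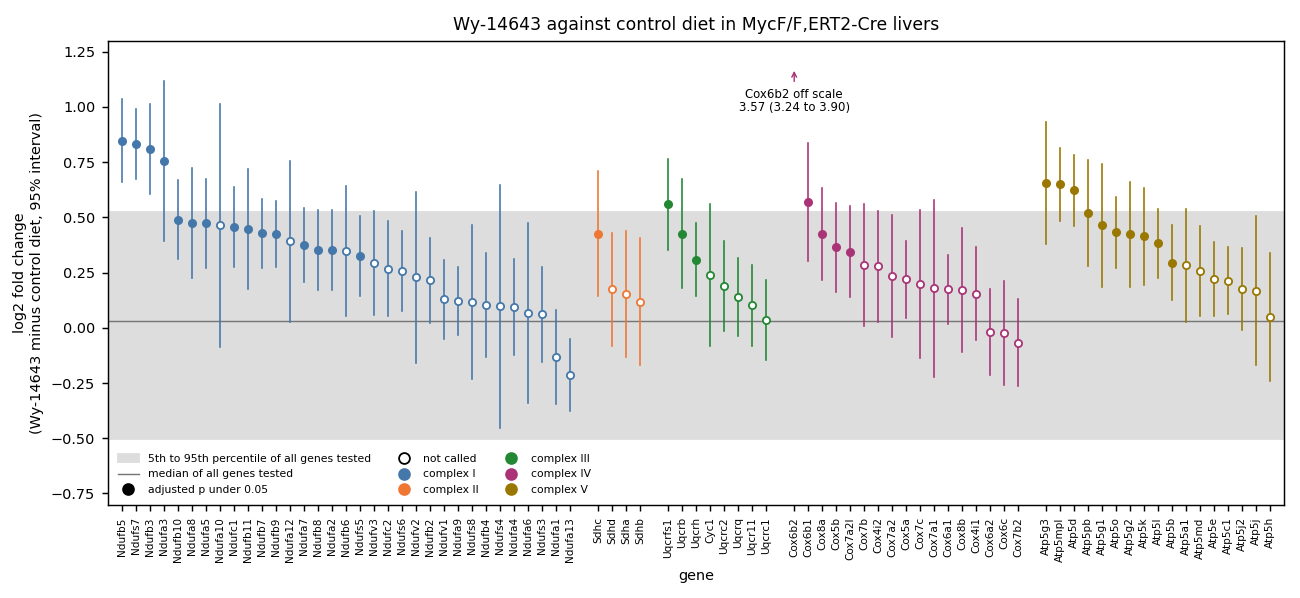
Log2 fold change of Wy-14643 against control diet in MycF/F,ERT2-Cre for 79 members by complex, with 95% intervals; filled points passed an adjusted p of 0.05. The grey band holds the 5th to 95th percentile of all genes tested, and Cox6b2 at 3.57 is off the scale.

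Complex I held 16 of the 35 calls, out of 34 testable subunits, with a median log2 fold change of 0.35. Ndufb5, an accessory subunit of the membrane arm, read -0.56, -0.53, -0.83 and -0.51 on control diet and 0.13, 0.32, 0.27 and 0.23 on Wy-14643. All 4 arrays on Wy-14643 lay above all 4 on control diet. The difference was 1.80-fold (log2 0.85, SE 0.09, limma adjusted p = 2.88e-05). Ndufs7, a core subunit that carries the last iron-sulfur cluster before ubiquinone, read -0.58, -0.56, -0.54 and -0.59 on control diet and 0.11, 0.25, 0.37 and 0.32 on Wy-14643. Its control arrays spread over less than 0.1 and lay far below the lowest Wy-14643 array. It rose by 0.83 (SE 0.07, limma adjusted p = 8.98e-06), and it was called in all 22 alternative fits.

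Ndufb3, another membrane arm subunit, had values on 3 arrays a group, -0.46, -0.63 and -0.55 on control diet and 0.30, 0.22 and 0.27 on Wy-14643, and rose by 0.81 (limma adjusted p = 2.91e-04). Ndufa3, also an accessory subunit, varied more: 0.18, -0.20 and -0.35 on control diet and 1.02, 0.59, 0.39 and 0.51 on Wy-14643. These groups did not overlap either, and the rise was 0.76 (SE 0.16, limma adjusted p = 0.0096). Ndufb10 rose by 0.49 and Ndufc1 by 0.46; both are accessory subunits. A further 9 subunits of complex I rose by 0.32 to 0.47.

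Other core subunits of complex I gave no call. Ndufv1, which binds NADH, differed by 0.13 (95% interval -0.05 to 0.31). Ndufs1, which holds several iron-sulfur clusters, had a value on no control array of MycF/F,ERT2-Cre and was not testable. Ndufv3 was the only member with several kept probes whose probes differed in sign, at 0.29, 0.14 and -0.05, none of them called. Ndufa4, named for complex I but found with complex IV, differed by 0.10 (limma adjusted p = 0.593). Ndufa13, an accessory subunit also known as GRIM-19, had the lowest value of all members: 0.38, 0.36, 0.43 and 0.45 on control diet and 0.04, 0.31, 0.15 and 0.26 on Wy-14643. All of its Wy-14643 arrays lay below its control arrays. The difference of -0.21 (SE 0.08) did not pass the test (limma adjusted p = 0.0783); it passed with the slide as a block (-0.24, limma adjusted p = 0.0499), and centring on the median turned it to 0.12 (limma adjusted p = 0.931).

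Complex II, which is also an enzyme of the TCA cycle, held 1 call in 4. Sdhc, a membrane anchor, read -0.61 and -0.30 on control diet and -0.09, 0.06 and -0.04 on Wy-14643, and rose by 0.43 (limma adjusted p = 0.0499). That call sits at the threshold and was lost in 7 of 11 fits that left out an array, with a highest limma adjusted p of 0.226 without control replicate 3; the same array left out gave 0.27. The flavoprotein Sdha differed by 0.15 (95% interval -0.13 to 0.44), the iron-sulfur subunit Sdhb by 0.12 (-0.17 to 0.40) and the other anchor Sdhd by 0.17 (-0.08 to 0.43). Each of these intervals holds 0 and also the median change over all members.

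In complex III 3 of 8 subunits rose, and the median was 0.22. Uqcrfs1, the Rieske iron-sulfur protein, read -0.50, -0.78, -0.58 and -0.59 on control diet and -0.20, -0.08, 0.08 and -0.02 on Wy-14643. No control array reached the lowest Wy-14643 array, and the rise was 0.56 (SE 0.09, limma adjusted p = 0.0014). Uqcrh, the hinge protein beside cytochrome c1, rose by 0.31 (limma adjusted p = 0.0152; 0.0508 without Wy-14643 replicate 2), and its second probe by 0.49. Cyc1, cytochrome c1 itself, had 1 control value and differed by 0.24 (limma adjusted p = 0.311). The core protein Uqcrc1 differed least, by 0.04 (95% interval -0.14 to 0.22), and its second probe by 0.24. One further subunit, counted but not named by the rule, rose by 0.43.

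Complex IV had 5 calls in 17, and the largest change of any member was in one of its tissue isoforms. Cox6b2, known as the testis form of the subunit that faces the space between the membranes, read -2.89, -2.54, -2.68 and -3.30 on control diet and 0.59, 0.84, 0.61 and 0.85 on Wy-14643. Without Cre, the lone control array read -2.73 and the Wy-14643 arrays read 0.84, 0.44 and 0.64. Diet parted all 12 arrays with a wide gap, and the genotypes lay together within each diet. The difference in MycF/F,ERT2-Cre was 11.9-fold (log2 3.57, SE 0.15, limma adjusted p = 4.49e-08), from 1 probe that was well above background on all 12 arrays, and 3.42 to 4.38 over the 22 alternative fits. Of the testis germ cell markers Prm1, Prm2, Tnp1 and Odf1 0 of 4 changed, with differences of -0.02 to 0.14, and Ldhc did not pass the filter. Its sister gene Cox6b1, the form found in most tissues, read -0.39 and -0.29 on control diet and 0.28, 0.12 and 0.29 on Wy-14643 and rose by 0.57 (limma adjusted p = 0.0115; 0.0591 without control replicate 3).

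Isoforms of the other complex IV subunits were mostly not called. Cox8a, the form of most tissues, rose by 0.43 (SE 0.10, limma adjusted p = 0.00864), while the muscle form Cox8b differed by 0.17 (limma adjusted p = 0.436). With the Cy5 signal alone, Cox8a stood at -0.01 (limma adjusted p = 0.995). Cox7a2l, a relative of Cox7a, rose by 0.35 (limma adjusted p = 0.0279). It was not called in 5 of the 11 fits that left out an array (control replicates 2 and 4 and Wy-14643 replicates 2, 3 and 4). In those fits its limma adjusted p reached 0.106. The liver form Cox7a2 differed by 0.24 and the heart and muscle form Cox7a1 by 0.18, with array values of Cox7a1 from -0.46 to 0.14 on control diet and from -0.42 to 0.52 on Wy-14643 that overlapped. Cox6a1, the liver form, differed by 0.17 and the muscle form Cox6a2 by -0.02. Cox4i1 differed by 0.16, its lung form Cox4i2 by 0.28, Cox7b by 0.28 and its testis form Cox7b2 by -0.07; Cox7b2 was well above background on 1 of 4 arrays on each diet. Of the subunits that lie around the catalytic core, Cox5b rose by 0.36 (limma adjusted p = 0.0178; 0.0522 without Wy-14643 replicate 4) and Cox5a differed by 0.22 (limma adjusted p = 0.0893).

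**Figure D3:**
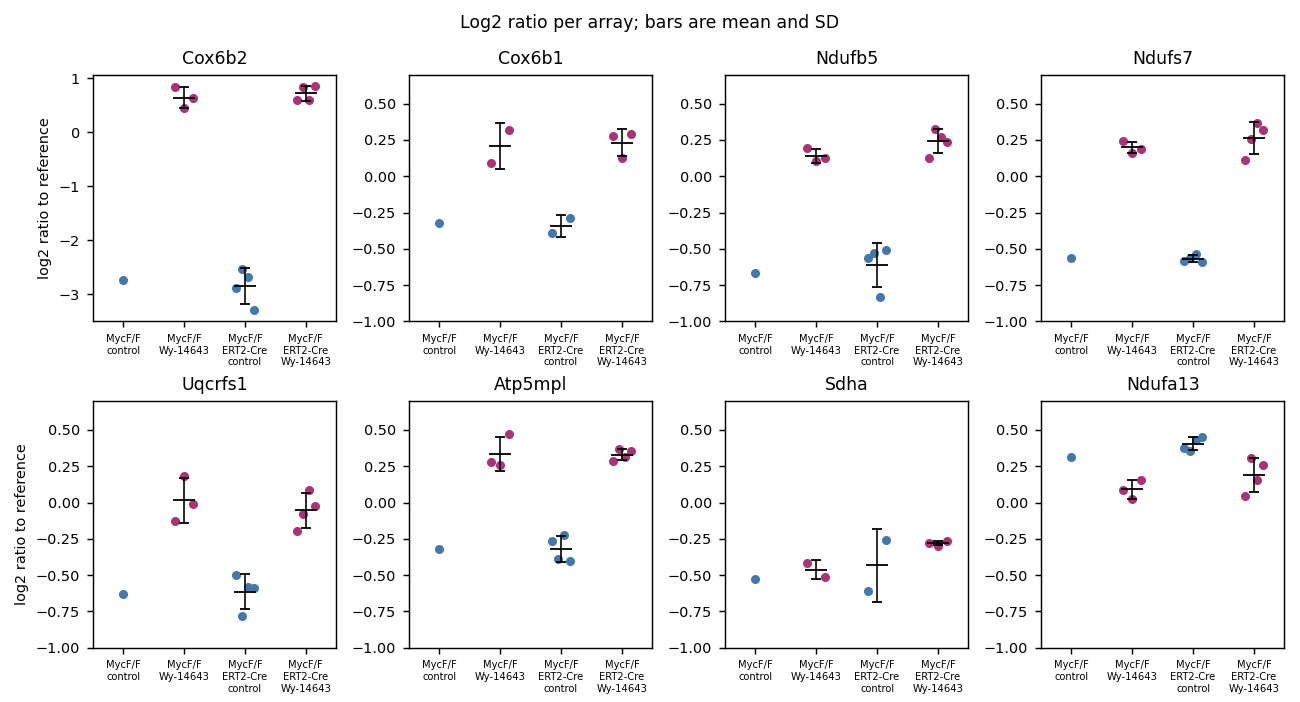
Log2 ratio to the reference on each array for 8 members in the 4 groups, with control diet in blue and Wy-14643 in purple; bars are mean and SD where a group has over 1 value. The Cox6b2 panel has its own axis, from near -3 on control diet to near 1 on Wy-14643; Sdha overlaps between diets and Ndufa13 lies lower on Wy-14643.

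ATP synthase had the highest share of calls, 10 of 17, and all 17 members were above 0 (median 0.38). The c subunit, of which copies form the rotor ring in the membrane, is encoded by Atp5g1, Atp5g2 and Atp5g3, and all of these rose. Atp5g3 read 0.05, -0.45 and -0.35 on control diet and 0.44, 0.40 and 0.37 on Wy-14643, a rise of 0.66 (SE 0.12, limma adjusted p = 0.0047). Control replicate 1 lay apart from the other control arrays but below every Wy-14643 array. Atp5g1 rose by 0.46 (limma adjusted p = 0.0279) and Atp5g2 by 0.42 (limma adjusted p = 0.0199). Atp5g1 was not called without control replicate 3 (0.28, limma adjusted p = 0.0525) or without Wy-14643 replicate 1, 3 or 4 (limma adjusted p = 0.0514, 0.068 and 0.0683), and Atp5g2 was not called without Wy-14643 replicate 3 or 4 (limma adjusted p = 0.0829 and 0.0533).

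Atp5mpl, a small membrane subunit, read -0.27, -0.39, -0.22 and -0.40 on control diet and 0.29, 0.37, 0.31 and 0.35 on Wy-14643. Its groups were tight and well apart, and the rise was 0.65 (SE 0.08, limma adjusted p = 9.25e-05). Atp5d, the delta subunit of the central stalk, rose by 0.62 (limma adjusted p = 1.49e-04). Atp5pb, subunit b of the peripheral stalk, rose by 0.52 and Atp5o, which ties that stalk to the catalytic head, by 0.43. Of the head itself, the catalytic beta subunit Atp5b rose by 0.29 (limma adjusted p = 0.023), with 0.47 and 0.57 on its other probes, and the alpha subunit Atp5a1 differed by 0.28 (limma adjusted p = 0.135). Atp5b was not called without control replicate 3 or 4 or Wy-14643 replicate 2 or 3 (limma adjusted p = 0.0612, 0.0619, 0.0664 and 0.0584). Atp5h, subunit d of the peripheral stalk, was the lowest at 0.05, although its second probe was called at 0.25. The other 2 called members of ATP synthase rose by 0.38 and 0.41.

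Promoter sequence was at hand for 66 of the 81 members, as 71 windows running from 250 bases before to 50 after a RefSeq start (GRCm38.p6). The windows shown are those of the pair Cox6b2 and Cox6b1, which differ most in size of change among isoforms, and of Ndufs7 and Atp5g3, which hold letters searched for. They lie at chr7:4753045-4753344 (minus strand), chr7:30626065-30626364 (minus strand), chr10:80249199-80249498 (plus strand) and chr2:73911277-73911576 (minus strand), and are written 5′ to 3′ on the gene's strand with matches in capitals. In Ndufs7 the capitals mark AAGATGGCG, a YY1 site. In Atp5g3 they mark CACGTG, the E-box bound by MYC and MAX, and the reverse complement of TCAAGGTCA, an ERRA site.
Cox6b2: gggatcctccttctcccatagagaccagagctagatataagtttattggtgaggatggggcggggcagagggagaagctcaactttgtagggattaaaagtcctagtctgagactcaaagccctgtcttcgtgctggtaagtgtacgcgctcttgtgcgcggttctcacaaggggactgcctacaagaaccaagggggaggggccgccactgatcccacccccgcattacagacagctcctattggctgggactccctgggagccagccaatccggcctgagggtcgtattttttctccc
Cox6b1: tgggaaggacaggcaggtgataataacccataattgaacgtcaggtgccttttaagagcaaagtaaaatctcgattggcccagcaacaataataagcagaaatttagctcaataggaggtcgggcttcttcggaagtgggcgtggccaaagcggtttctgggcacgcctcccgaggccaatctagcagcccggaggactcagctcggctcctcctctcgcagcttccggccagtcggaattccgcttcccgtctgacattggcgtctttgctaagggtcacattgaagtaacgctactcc
Ndufs7: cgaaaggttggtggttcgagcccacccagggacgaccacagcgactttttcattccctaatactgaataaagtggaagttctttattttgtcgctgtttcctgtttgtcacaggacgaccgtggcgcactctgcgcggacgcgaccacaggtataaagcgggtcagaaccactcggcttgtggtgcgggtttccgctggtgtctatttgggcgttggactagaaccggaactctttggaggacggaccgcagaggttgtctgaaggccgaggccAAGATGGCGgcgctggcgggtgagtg
Atp5g3: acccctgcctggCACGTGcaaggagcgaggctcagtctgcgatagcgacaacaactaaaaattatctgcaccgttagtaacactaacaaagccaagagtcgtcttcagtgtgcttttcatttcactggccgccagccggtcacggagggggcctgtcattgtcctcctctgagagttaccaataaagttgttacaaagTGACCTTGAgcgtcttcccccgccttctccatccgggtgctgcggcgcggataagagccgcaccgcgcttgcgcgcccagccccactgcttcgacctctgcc

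Each set of letters was searched on both strands in the members' windows and in all 32851 windows of the same length. GCATGCGC, part of the NRF1 site, was in 12.7% of the members' windows and in 2.71% of all windows. AAGATGGCG was in 9.86% and in 1.4%, and CCGGAAGT, an ETS site as bound by GABPA, in 7.04% and in 3.89%. CACGTG was in 9.86% and in 7.15%, or counted by gene in 9.09% and in 8.09%. TCAAGGTCA was in 2.82%, which is only 2 windows of members, and in 0.423%. The hexamer AGGTCA that it contains was in 21.1% and in 16.3%. A direct repeat of AGGTCA with 1 base between the copies, a form of the PPAR element, was in 0 of the members' windows and in 0.0396% of all windows. In the 32 windows of members called in MycF/F,ERT2-Cre, CACGTG was in 18.8%, which is 6 windows of 5 genes. There GCATGCGC was in 12.5%, AAGATGGCG and CCGGAAGT each in 6.25%, and TCAAGGTCA in 3.12%. AGGTCA was in 21.9% of these windows and the direct repeat in 0. The counts are small, and differences between called and other members were not tested. These are matches of letters, and binding was not measured.

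In MycF/F livers the same diet comparison rests on 3 arrays against the lone pooled control array, which is assumed to vary like the others. There 11 of 77 testable members rose and 0 fell (limma, adjusted p under 0.05), or 14.3%, against 3.36% of all genes that rose and 13% of the brightest 10% of genes; 3.22% of all genes fell, and 6.58% were called in either direction. The median over members was 0.28 and over all genes -0.00. The 11 were Cox6b2 (3.38, limma adjusted p = 1.8e-05), Ndufb5 (0.80), Ndufs7 (0.76), Ndufb3 (0.71), Atp5mpl (0.65), Uqcrfs1 (0.65), Ndufc1 (0.51), Ndufb10 (0.50), Uqcrh (0.50), Atp5d (0.47) and Atp5o (0.46). All 11 were also called in MycF/F,ERT2-Cre, beside 92.3% of all genes called higher in MycF/F and testable in both genotypes. The 2 comparisons share no array, but both come from 1 fit with 1 spread per gene over all groups. Their calls are therefore not independent. Ndufc1, Atp5o and Uqcrh lost the MycF/F call in some fits without an array with Cre, at unchanged fold changes. The 11 are 34.4% of the 32 members called in MycF/F,ERT2-Cre and testable in both, beside 34.8% of all such genes. Each of those 32 was above 0 in MycF/F, beside 97.5% of all such genes. The count fell to 6, 7 and 4 without replicate 1, 2 or 3 of MycF/F on Wy-14643, and Ndufb5, Ndufs7, Atp5mpl and Cox6b2 were called in all 11 fits that left out an array.

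**Figure D4:**
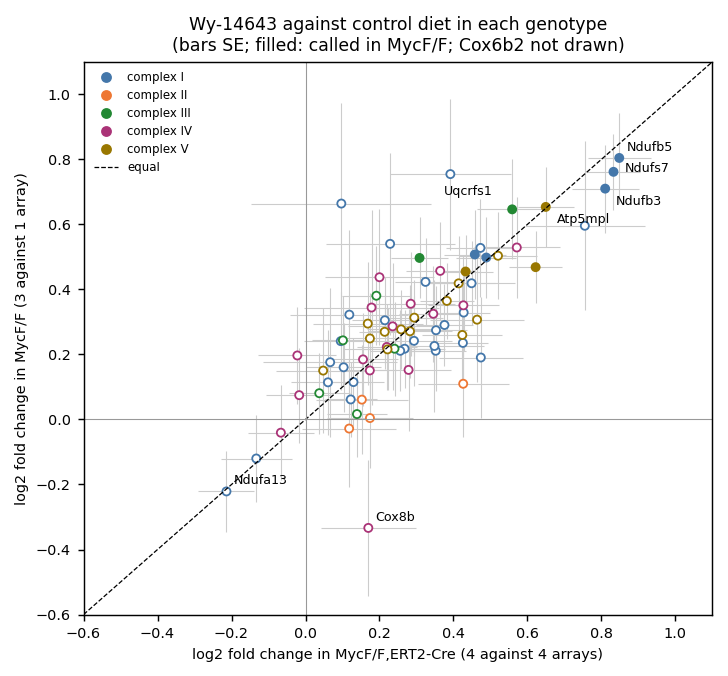
Log2 fold change of Wy-14643 against control diet in MycF/F (vertical, 3 arrays against 1) and in MycF/F,ERT2-Cre (horizontal, 4 against 4) for members tested in both, without Cox6b2; bars are SE and filled points were called in MycF/F. Most points lie above 0 on both axes, and Ndufb5, Ndufs7 and Ndufb3 lie farthest out.

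The genotype comparisons ask whether floxed Myc with Cre changed these subunits. On Wy-14643, 0 of 80 members were called between MycF/F,ERT2-Cre and MycF/F (limma, 2 at an unadjusted p under 0.05), where 0.0159% of all genes were called higher and 0.0517% lower. The differences ran from -0.28 (Ndufs1) to 0.34 (Ndufa3), with a median of 0.04. These extremes rest on few arrays: Ndufs1 on 2 with Cre against 1 without, and Ndufa3 on 4 against 2. The members past the unadjusted p were Ndufb9 at 0.17 and Ndufa2 at 0.18, both higher with Cre and named after their values were seen. Cox6b2 differed by 0.08 (95% interval -0.28 to 0.43), Ndufs7 by 0.06 (-0.10 to 0.23) and Ndufb5 by 0.10 (-0.10 to 0.30). On control diet, 0 of 77 members were called against the lone MycF/F array (limma, 0 at an unadjusted p under 0.05; 0% of all genes called), with a median of 0.04. The difference of the diet effects between genotypes gave 0 calls of 76 (limma, 0 at an unadjusted p under 0.05; 0% of all genes called), with a median of 0.00 and a median SE of 0.17. Single differences ran from -0.57 to 0.50, so the precision here is low.

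Genes around the chain were read from lists drawn up for these complexes' neighbours. Of 39 assembly factors tested in MycF/F,ERT2-Cre, 8 rose on Wy-14643 and 0 fell (limma, median 0.19), led by the copper chaperone Cox17 at 0.75, Cox20 at 0.65, Coa7 at 0.55 and Cox19 at 0.53. Of 16 electron carriers and entry points, 8 rose and 2 fell. Cytochrome c, Cycs, rose by 1.40 (limma adjusted p = 2.42e-05), more than any member but Cox6b2. The ubiquinone synthesis genes Coq4, Coq6, Coq5, Coq7 and Coq9 rose by 1.19, 0.87, 0.78, 0.70 and 0.55, and Etfb, which hands over electrons from fatty acid oxidation, rose by 0.91. Sqor, the sulfide quinone oxidoreductase, fell by 1.13 on the log2 scale and the glycerophosphate dehydrogenase Gpd2 by 0.35.

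Of 16 TCA cycle enzymes and pyruvate dehydrogenase subunits, 9 rose and 0 fell (median 0.44), among them Dlst by 0.88 and Suclg1 by 0.65. Of 11 carriers, channels and uncoupling genes 4 rose, Ucp2 by 2.17, the phosphate carrier Slc25a3 by 0.58, the calcium uniporter Mcu by 0.49 and Vdac3 by 0.29. Regulators of mitochondrial biogenesis gave 3 higher and 1 lower of 13: Ppargc1b rose by 0.63, Tfb2m by 0.59 and Ssbp1 by 0.50, and Esrra fell by 0.49 on the log2 scale. The coactivator Ppargc1a differed by -0.07 and the transcription factors Nrf1, Gabpa and Tfam by 0.30, 0.17 and 0.17, with no call. Mitochondrial fatty acid oxidation genes known to respond to PPARA rose in 13 of 15, with a median of 1.75, beside the members' 0.28; Pdk4 rose by 2.67 and Acadm by 2.21, and Cpt1a and Ucp3 were not called. No gene of these lists was called between genotypes on Wy-14643 (limma), beside 0.0676% of all genes.

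Over the 12 arrays, the mean of the 17 called members with a value on every array was followed most closely by Acot8, Hsd17b11, Aspa, Acaa2 and Hacd3, with Pearson r of 0.990 to 0.987 among 11613 named genes compared. The arrays share their diets, so this r describes the parting by diet. Acot8 and Acaa2 act in fatty acid oxidation, and the diet difference of the 5 ran from 0.86 for Aspa to 3.36 for Hsd17b11.

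Markers of liver cell types moved with the diet too. Their counts in MycF/F,ERT2-Cre stand beside 8.94% of all genes that rose and 7.44% that fell. All 6 hepatocyte markers on the array passed the filter, and 3 of them fell and 0 rose in MycF/F,ERT2-Cre: Alb by 1.39, Ttr by 1.28 and Tat by 0.87 on the log2 scale, while Hnf4a differed by 0.02. The mean of the list ran from 0.57 to 0.72 on control diet and from -0.30 to 0.13 on Wy-14643. Of the Kupffer cell markers 5 of 8 fell, with list means of 0.19 to 0.93 and -0.35 to -0.14, and of the endothelial markers 2 of 7 fell, with list means of 0.14 to 0.20 and -0.23 to -0.10. Stellate cell markers gave 3 lower of 7, lymphocyte 2 lower of 5, erythroid 2 lower of 4, cholangiocyte 1 higher and 1 lower of 5, neutrophil 0 of 3, and adipocyte 0 of 5. Of the striated muscle markers 1 of 6 fell, Tnnt3 at -1.35, and Mb and Myl1 did not pass the filter. The part of these shifts in the members' changes was not tested.

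**Figure D5:**
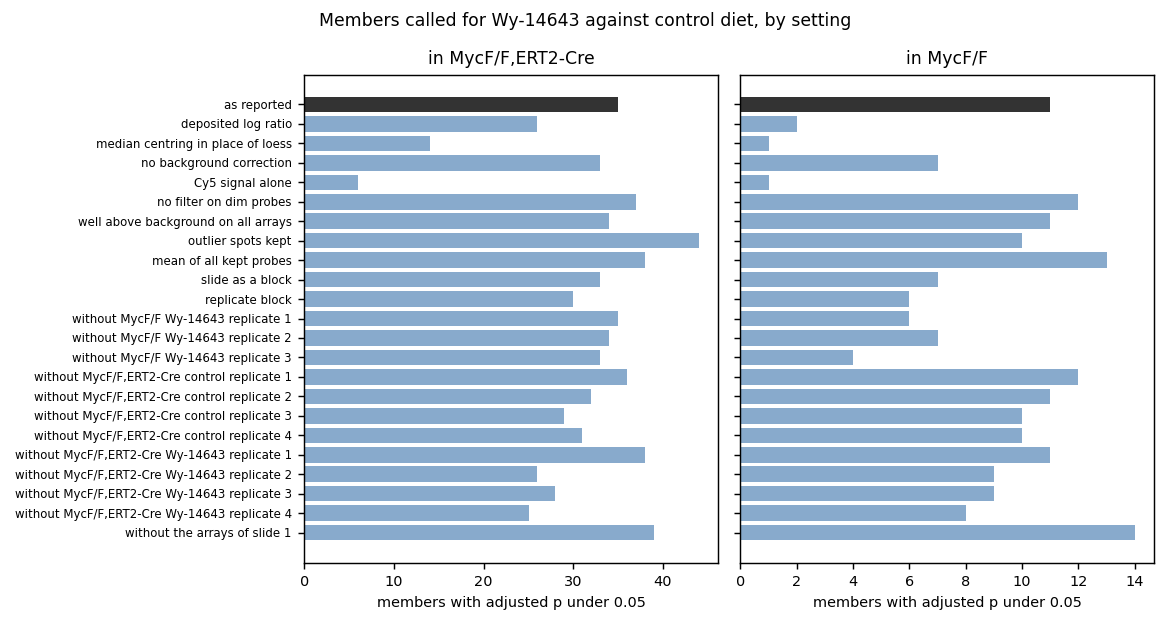
Members with an adjusted p under 0.05 for the diet comparison within each genotype (horizontal bars, from 0) as reported (dark) and under 22 other settings. In MycF/F,ERT2-Cre the count lies between 6 and 44, and in MycF/F between 1 and 14.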

How the data were processed

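Liver RNA of 12 samples was read on Agilent arrays of 2 colours. The deposited spot values are intensity medians of Cy5, Cy3 and local background which, per the file headers, Agilent software (Feature Extraction, version 11.0.1.1) wrote; the deposited log10 ratio column and the outlier and above-background marks come from the same software, per the file headers. In R 4.3.3 with limma 3.58.1, signals were corrected with normexp (offset 50) and log2 ratios loess-normalized within arrays. Outlier spots were left out, and spots of a probe averaged. Probes well above background in Cy5 on at least 3 arrays were kept. Accessions were named through a RefSeq gene table (GRCm38.p6), and the brightest kept probe stood for a gene. The array design's build differs, so probes were not located within genes.

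All genes on 12 arrays were fitted with the 4 group means as terms (lmFit, eBayes, 8 residual degrees of freedom), with two-sided p-values adjusted over every gene tested (Benjamini-Hochberg). The script was tested on simulated data. Alternatives covered background, scaling, filters, outlier spots, probe choice, slide and replicate blocks, and each array or slide 1 left out. On Wy-14643, replicate numbers of the genotypes share slides. Deviations of same-numbered arrays there correlated at r = 0.416, 0.144 and 0.137, beside -0.175, 0.178 and 0.196 for the best other number. Those of the diet groups correlated at r = 0.318, -0.0745, -0.0223 and 0.092. The number of arrays limits the precision.

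The members and lists were chosen with earlier results of these data known. Members were named if called in a comparison (the 12 largest where over 30 were), if highest or lowest of their complex, if tissue isoforms or core subunits, or if their probes differed in sign; genes of the other lists were named from those called, and the 5 most alike by correlation. Nrf1, Gabpa, Tfam, Ppargc1a, Hnf4a and the germ cell markers were named besides. Results for some genes that the rule would name, 1 called member of complex I among them, are not reported here.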

Additional observations from a re-analysis of the deposited data

Results flagged for a closer look

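Single arrays far from the rest of their group were looked for in the 92 groups of 4 arrays in which a member had all 4 values, and 6 were found; chance marks about 1 in 20 groups. On control diet in MycF/F,ERT2-Cre, Ndufb5 read -0.832 on replicate 3, where the others lay between -0.565 and -0.511. Ndufs8 read 0.517 on replicate 1, against -0.24 to -0.148 on the others, and Uqcr11 read 0.21 on the same array, against -0.0468 to -0.0183. On Wy-14643, Ndufb8 read 0.305 on replicate 2, against 0.19 to 0.2, and Ndufb9 read 0.145 on replicate 1, against 0.273 to 0.299. Ndufs3 read 0.175 on replicate 1, against -0.00579 to 0.0232. Of the 6, 4 were on arrays of slide 1. Ndufb5, Ndufb8 and Ndufb9 were called with each array left out in turn.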

How the results depend on the processing

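In MycF/F,ERT2-Cre, the count of 35 called members became 14 with median centring and 6 with the Cy5 signal alone, and the median over all members of 0.28 became 0.68 and 0.37. All other settings gave 25 to 44 calls, and medians of 0.27 to 0.33. In MycF/F, the count of 11 became 2 with the deposited log ratio, 1 with median centring, 7 with no background correction, 1 with the Cy5 signal alone and 7 with the slide as a block. The share of members that rose was then below that of the brightest 10% of genes: 2.6% against 6.88%, 1.3% against 3.48%, 9.09% against 11.8%, 1.3% against 2.76% and 9.09% against 11.7%, in that order. The median of 0.28 became 0.46 with median centring and 0.41 with Cy5 alone. With each array left out in turn the counts ran from 25 to 38 and from 4 to 12, and the medians from 0.27 to 0.31 and from 0.23 to 0.32. Genotype counts stayed at 0 in every setting. Their leave-one-out medians ran from 0.01 to 0.06 on Wy-14643, from 0.01 to 0.05 on control diet and from -0.03 to 0.04 for the difference of diet effects; median centring gave -0.10 on control diet and 0.16 for that difference. Of called members, values kept their sign in 768 of 769 cases in MycF/F,ERT2-Cre, the exception being Cox8a at -0.0090 with Cy5 alone, and in 242 of 242 in MycF/F. The causes were not tested.

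With the replicate number as a block, 30 members were called in MycF/F,ERT2-Cre and 6 in MycF/F (7.79%, against 11% of the brightest 10% of genes). Across diets with Cre, same-numbered arrays 1 and 4 also share a slide and 2 and 3 do not; for 1 of 4 pairs across diets did the array correlate best with its own number. Between genotypes on Wy-14643, where same-numbered arrays share a slide, the block changed no call. Whether the numbers pair the samples is not known here. MycF/F arrays 2 and 3 correlated better with another number (r = 0.178 and 0.196) than with their own (r = 0.144 and 0.137).

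Outlier spots left Ndufs1 with no control value in MycF/F,ERT2-Cre, and without the arrays of slide 1 the count was 39. Only 1 array stands for MycF/F on control diet.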
